A study of Mus musculus with 10 samples.

Results

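The genes described here encode the proteins of the cytosolic ribosome, Rpl for the large subunit and Rps for the small one. They were taken as the probe sets, the groups of short probes that read 1 transcript, whose annotation names 1 gene with such a symbol. This gave 49 probe sets for 35 genes, 22 for the large and 27 for the small subunit, out of 12422 probe sets for 8251 genes on the array. The large subunit had 17 of the genes and the small one 18. RNA came from gastrocnemius, the large calf muscle, of male mice aged 16 weeks, with 5 arrays for the normal group, called control here, and 5 for the mdx group. Mdx mice carry a dystrophin mutation in every tissue, so their fibres break down and regrow repeatedly. No strain is given for the normal mice, and no label states whether each array had an animal of its own. The p-values therefore reflect only how far these arrays spread, and some of that spread may be technical.

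A ribosome is built from large and small subunits, each a core of ribosomal RNA wrapped in proteins, most of which are needed in equal number. In mammals most of these proteins are made from mRNAs that begin with a C and a run of pyrimidines, the 5′ TOP sequence, through which the growth kinase mTOR and the binding protein Larp1 set their translation. Regrowing muscle fibres and activated immune cells both make many new ribosomes.

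The bases around the annotated starts of these transcripts are shown because the TOP run is the sequence feature the family is known for. RefSeq promoter windows (GRCm38.p6) reach from 250 bases before to 50 after the annotated start, and 28 of the 35 genes had at least 1, with 37 windows in all. Each line below gives 20 bases before the start and the first 10 of the transcript, 5′ to 3′, with the C and the pyrimidines that follow it in capitals where such a run of at least 5 begins within 10 bases of the start. The first 3 have the run at the annotated start, and the others belong to genes whose values are given further on. For Rps24 and Rpl19, which have more than 1 annotated start, the first is shown.
Rps10, chr17:27635235-27635264, minus strand: acgctgcgccgcgcacgcccCTTCCTTTCC
Rps18, chr17:33955656-33955685, minus strand: acttatacgtcacttccgctCTCTCTTCCa
Rps27, chr3:90213639-90213668, minus strand: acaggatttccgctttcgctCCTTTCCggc
Rps24, chr14:24490658-24490687, plus strand: acgcccccgcgctggggtcCTTCCTTgcgc
Rpl7a, chr2:26910787-26910816, plus strand: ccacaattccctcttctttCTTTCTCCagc
Rpl19, chr11:98026690-98026719, plus strand: ccacgtgaccaaacgCCCTCactgcgcatg
Rpl13a, chr7:45128736-45128765, minus strand: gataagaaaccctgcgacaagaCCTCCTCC
Rpl41, chr10:128549159-128549188, minus strand: gacgacacacgggccggctcggaagtgacg
Rps28, chr17:33824553-33824582, minus strand: tcctgggtaccgcgtgcggtctcgcgagag
Rplp0, chr5:115559447-115559476, plus strand: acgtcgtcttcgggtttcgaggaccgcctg

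A C with at least 4 pyrimidines after it stood exactly at the annotated start in 5 of the 37 windows (13.5%), against 2.51% of all 32851 promoter windows of the same length. Within 10 bases on either side it was found in 18 of 37 (48.6%), against 30.7% of all windows. On both strands of the 300-base window, CCGGAAG, a core bound by ETS factors, was present in 12 of 37 (32.4%), against 8.86% of all. The YY1 core CCATNTT was in 14 of 37 (37.8%), against 16.1%. The Sp1-type box CCCGCC was in 20 (54.1%), against 35.3% of all and 45.6% of protein-coding windows, and the TATA box TATAAA in 4 (10.8%), against 13.6% of all. These matches describe sequences at annotated starts, which the arrays do not measure. A window without the run therefore does not show that the transcript lacks it. No motif was set against the array values.

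The deposited intensities are on a linear scale and include values below 0. Probe sets entered the test when 5 or more of the 10 arrays read above 134.3, the 40th percentile of the deposited values. The noise level, 156.8, was estimated from the values below 0. Of the ribosomal protein probe sets, 33 were tested, 15 of the large and 18 of the small subunit, for 12 and 13 genes. The other 16 were too dim, 9 of them above the noise level on no array, and 10 genes dropped out with them: Rpl32, Rpl35a, Rpl38, Rpl39l, Rpl7l1, Rps13, Rps14, Rps15, Rps20 and Rps27l. Ribosomal protein genes with no probe set of their own enter only through the probe sets annotated to several genes, described further on. For genes with several tested probe sets, 7 of the 25, the brightest on average represents the gene.

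Most tested members were among the strongest signals on the arrays. The representative probe sets of 19 genes had mean intensities from 8425 to 34058, at or above the 97.3rd percentile of the array. Those of the other 6 lay between 130 and 860, with none between 860 and 8425. Among the 19, the coefficient of variation between arrays had a median of 9.76% in control and 10.8% in mdx. Rpl41 varied most in both groups, at 24.2% and 30.9%.

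Several properties of the arrays differed between the groups and touch everything below. The mean after trimming 2% from each end was 800.7 to 800.9 on 9 arrays and 723.1 on mdx replicate 1, so intensities measure a gene against the rest of its array. The 98th percentile of intensity was lower in mdx, at 9386 to 10820 against 11689 to 12204 (exact permutation p = 0.00794, the smallest that 5 against 5 can give, two-sided). The hybridization controls, RNA added before hybridization, averaged 10231 ± 1355 in mdx and 15433 ± 2062 in control (SD, n = 5, exact permutation p = 0.00794), with no overlap. Actin 3′ over 5′ signal, a sign of RNA quality, was 1.02 ± 0.048 in mdx and 1.13 ± 0.038 in control (exact permutation p = 0.0159). The Gapdh ratio did not differ, at 0.732 ± 0.041 in mdx and 0.735 ± 0.060 in control (exact permutation p = 0.921). The 3′ probe set of 18S ribosomal RNA, the RNA core of the small subunit, read 1323 ± 442 in mdx and 1908 ± 692 in control, and the groups overlapped (exact permutation p = 0.183). Their part in the results was not tested.

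Markers of other cell types moved with genotype. All 8 macrophage markers were higher in mdx, and their summed intensity was 3351 to 7010 in control and 38927 to 55878 in mdx. Of 8 fibroblast markers 6 were higher and 2 lower, with sums of 44700 to 58240 and 83598 to 95919. Of 6 markers of embryonic muscle 5 were higher, with sums of 2861 to 3551 and 20859 to 32828. Of 8 markers of muscle fibres 4 were lower as deposited, with overlapping sums of 184737 to 328262 and 145754 to 239949. After quantile normalization, described further on, 2 were lower and 0 higher. The median log2 change of the 8, mdx minus control, went from -0.55 as deposited to -0.08. All 8 averaged above the noise level. Of 4 tested lymphocyte markers 2 were lower, and Cd3e, Cd3g and Cd8a were below the noise level on all arrays. Of 7 endothelial markers 1 was higher and 2 were lower. In such bulk tissue, fewer cells of a type and less RNA per cell cannot be told apart, and the part of these shifts in the ribosomal protein values was not tested.

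With the scaling as deposited, ribosomal protein transcripts as a family stood about level between mdx and control, and a few members moved in opposite directions. Of 25 genes, 4 rose (Rpl13a, Rpl19, Rps4l and Rps10), 3 fell (Rpl41, Rps24 and Rps28) and 18 did not pass limma's test at an adjusted p of 0.05. Counted by probe set, 8 of 33 were called, against 33.1% of all 7612 tested probe sets. By direction 4 were higher, against 15.6% of all, and 4 lower, against 17.5%. The groups did not overlap in 5 of 33, against 25.1% of all. The median log2 change, mdx minus control, was 0.05 over the 25 genes and -0.05 over all tested probe sets. It was 0.04 for the 12 large and 0.05 for the 13 small subunit genes. These small medians turned to -0.02 and -0.01 when the arrays were set to equal medians.

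**Figure D1:**
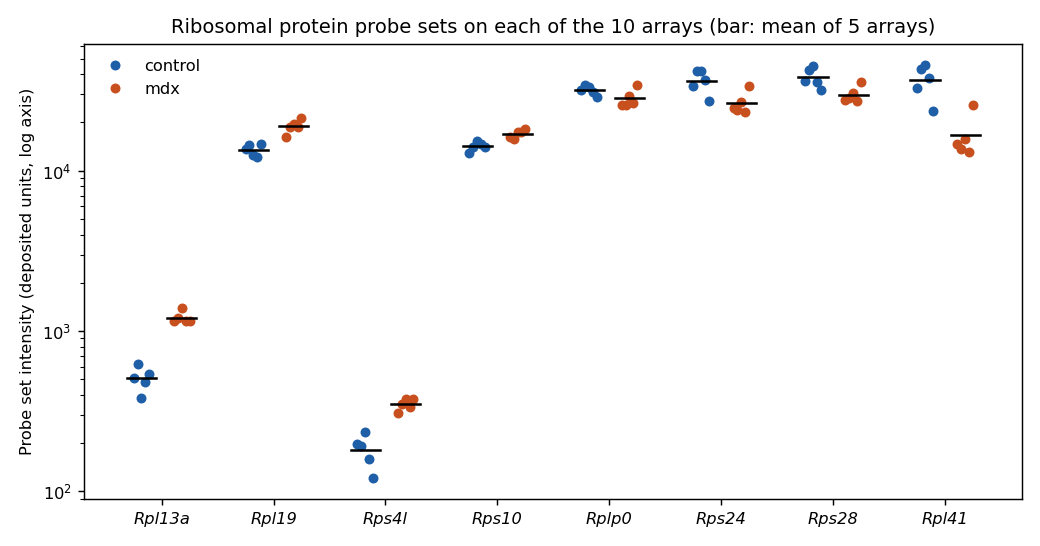
Intensity of 8 ribosomal protein probe sets on each of the 10 arrays, on a log axis, with each group's mean as a bar. Rpl13a, Rpl19, Rps4l and Rps10 are higher on every mdx array than on any control array, while Rplp0, Rps24, Rps28 and Rpl41 overlap.

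Rpl13a, a large subunit protein also known to leave the ribosome and silence inflammatory mRNAs after interferon signalling, had the largest rise. Control arrays 1 to 5 read 508, 620, 383, 484 and 542, and mdx arrays read 1161, 1200, 1384, 1160 and 1160. Every mdx array stood well above every control array. The log2 change was 1.05 (SE 0.11, 2.07-fold), with a limma adjusted p of 1.92e-05. At a mean of 860 this is the brightest of the 6 dim representatives.

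Rpl19, a large subunit protein that forms a bridge to the small one, had the largest rise among the bright members. Its probe set read 13746, 14413, 12566, 12245 and 14714 in control and 16331, 18623, 19499, 18667 and 21373 in mdx. The lowest mdx array was above the highest control array. The log2 change was 0.47 (SE 0.09, limma adjusted p = 0.00106), or 1.39-fold. A second, dim probe set of the gene, near the noise level in mdx, did not pass (-0.66, SE 0.44).

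Rps10, a protein of the head of the small subunit, read 12949, 14138, 15434, 14583 and 14096 in control. In mdx it read 16139, 15661, 17444, 17329 and 18110, all above control. The log2 change of 0.25 (SE 0.07, limma adjusted p = 0.0179) was the smallest of the 4 rises. Rps4l, a relative of the X-linked Rps4x, went from 198, 191, 234, 160 and 121 to 309, 353, 375, 334 and 379. Groups did not overlap, but the levels are close to the noise of 156.8, with 1 control array below it. Its log2 change was 0.59 (SE 0.13, limma adjusted p = 0.00419). The suffix of the Rps4l probe set marks probes shared with other transcripts. A second Rps4l probe set, too dim to be tested, averaged 136 in control and 92.6 in mdx, with overlap.

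Rpl41, a very short, basic protein of the large subunit, had the largest fall. Control arrays read 32681, 43407, 45875, 37752 and 23720, and mdx arrays 14656, 13749, 15882, 13072 and 25569. Mdx replicate 5 stood apart from the other mdx arrays and exceeded control replicate 5, the lowest of the controls, so the groups overlapped there only. The log2 change was -1.15 (SE 0.20, limma adjusted p = 0.00096), or 0.452-fold. The suffix of this probe set marks probes shared with related sequences, so copies of the gene could add to it.

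Rps28 and Rps24, small subunit proteins, were called lower, each by 1 of its probe sets. The suffix of that Rps28 probe set marks probes shared with related sequences, as for Rpl41. Rps28 read 36395, 42292, 45112, 35873 and 31794 in control and 27430, 28271, 30451, 27201 and 35756 in mdx. Rps24 read 33937, 41700, 41869, 36766 and 27303 in control and 24594, 24063, 26765, 23171 and 33719 in mdx. In both, as in Rpl41, control replicate 5 was the lowest control and mdx replicate 5 the highest mdx array, and these made the groups overlap. The log2 changes were -0.36 (SE 0.11, limma adjusted p = 0.0258) for Rps28 and -0.45 (SE 0.13, limma adjusted p = 0.021) for Rps24.

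The calls for Rps28 and Rps24 depended on single arrays. Leaving out control replicate 2 or 3, or mdx replicate 2 or 4, ended both (adjusted p from 0.051 to 0.064), and for Rps28 so did leaving out mdx replicate 1 (adjusted p = 0.061). Other probe sets of Rps28, at -0.26 and -0.25, and of Rps24, at -0.09, did not pass. The bright Rps24 probe set shares its source sequence record with the Rpl7 probe set, which stood at 0.06 (SE 0.09), so its gene assignment is uncertain.

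Among the 18 genes that did not pass, the 14 bright ones had log2 changes between -0.30 and 0.32, with SE of 0.07 to 0.12. Rplp0, the P0 protein at the base of the stalk that recruits elongation factors, read 32019, 34254, 33295, 30845 and 28886 in control and 25602, 25633, 29313, 26348 and 34226 in mdx. Mdx replicates 3 and 5 lay inside the control range and the other 3 below it, and the log2 change was -0.18 (SE 0.09, limma adjusted p = 0.165). Without mdx replicate 5 it was -0.25 and passed (adjusted p = 0.027). Rplp0 is often used as a reference gene in muscle.

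Closest to the threshold were Rpl10a (0.32, adjusted p = 0.0514, with a second probe set at 0.08), Rpl7a (-0.30, adjusted p = 0.0566) and Rps3 (0.24, adjusted p = 0.0651) by limma, on opposite sides of 0. Rps7 (0.15), Rpl6 (0.09), Rpl7 (0.06), Rps18 (0.05), Rps19 (0.03) and Rpl8 (0.01) stood above 0 on the log2 scale, and Rps3a1 (-0.10) and Rpl37a (-0.25) below it, with overlapping groups in each. Rpsa, a small subunit protein that is also the laminin receptor precursor, read 8487, 9924, 8885, 8244 and 7497 in control and 7044, 9465, 7739, 8616 and 8352 in mdx, with wide overlap (-0.06, SE 0.10). Rps4x, encoded on the X chromosome, read 20386, 18473, 17514, 14821 and 20561 in control and 15511, 19420, 18701, 21223 and 19742 in mdx with its bright probe set. These groups overlapped almost fully (0.05, SE 0.11). A dim second probe set of Rps4x was called lower, from 393 ± 43.6 to 221 ± 82.6 (-0.56, limma adjusted p = 0.0168), with 2 mdx arrays below the noise level.

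The 4 dim genes that did not pass, Rpl22, Rpl39, Rps27 and Rps29, had log2 changes from -0.71 to 0.73 with SE up to 0.66. The last of them, with the widest error, ran from -1604 to 1598 in control and from 109.6 to 1529 in mdx. Rpl22, an RNA-binding large subunit protein that is not essential for the ribosome, read 719, 952, 423, 1082 and 981 in control and 433, 423, 510, 783 and 850 in mdx (-0.38, SE 0.23). Control replicate 3 was as low as the lowest mdx arrays. Without control replicate 3 the log2 change was -0.56 and passed (limma adjusted p = 0.049). A dimmer second probe set of Rpl22 did not pass with all arrays (-0.26, SE 0.28).

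How many of these genes were called changed with the scaling. After quantile normalization, which gives every array the same distribution of values, 14 of the 25 genes rose, 1 fell and 10 did not pass. By probe set 16 of 33 were called, against 32.6% of all: 14 were higher, against 15.2% of all, and 2 lower, against 17.4%. The median change of the family was 0.29, while that of all tested probe sets was -0.08. Of the 7 genes called as deposited, 5 kept their direction and call, Rps28 was called in the opposite direction (0.16, adjusted p = 0.0203) and Rps24 did not pass (0.07). Another 9 genes were called only after quantile normalization, all higher.

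**Figure D2:**
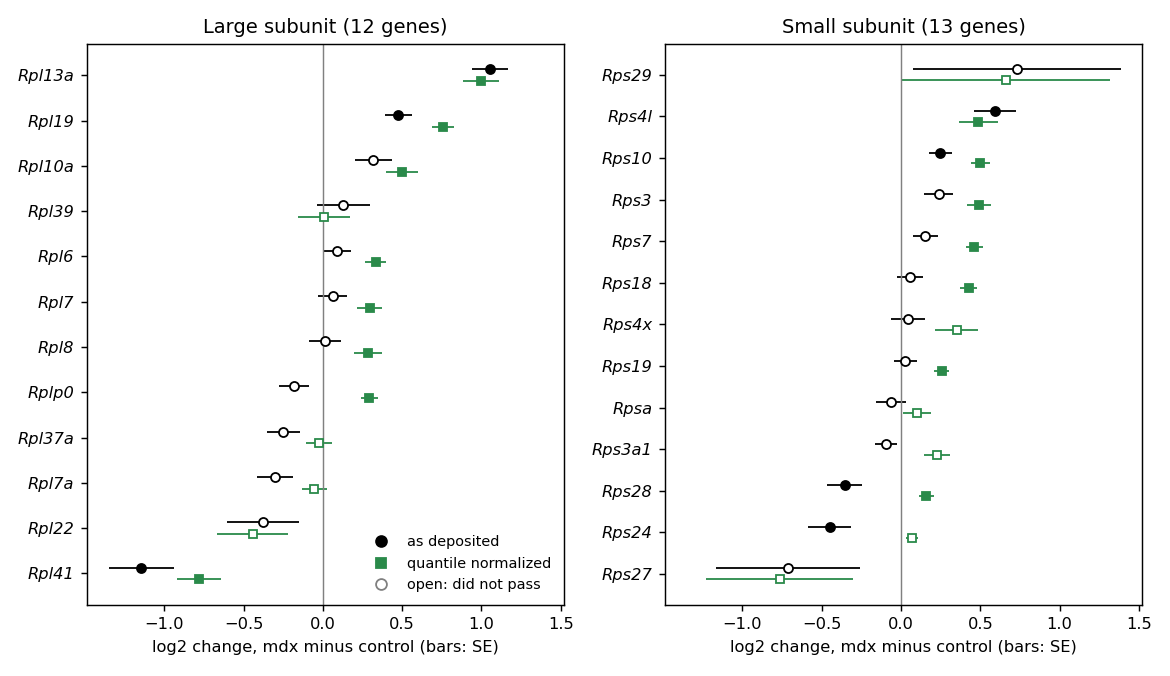
Log2 change, mdx minus control, of the 12 large and 13 small subunit genes with the SE of the fit, as deposited (black circles) and after quantile normalization (green squares), filled where the gene passed at an adjusted p of 0.05. The bright genes shift to the right after quantile normalization, while dim ones such as Rps29 and Rpl22 do not, and Rpl41 stays lower in both.

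Ribosomal protein genes that gained a call after quantile normalization belong to both subunits. Rps7 stood at 0.46 (adjusted p = 4.43e-05), Rps18 at 0.43 (adjusted p = 0.000123) and Rps3 at 0.49 (adjusted p = 0.000389), by limma. The sign of Rplp0 turned, from -0.18 to 0.29 (SE 0.05, limma adjusted p = 0.00149). Rpl19 was higher at 0.75 and Rps10 at 0.50, and Rpl41 was lower at -0.78 (limma adjusted p = 0.00112).

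Scaling to the hybridization controls called 19 of the 25 genes higher and 1 lower, with a median of 0.61. This scaling moved the median of all tested probe sets to 0.41 as well, and called 41.3% of them higher and 1.75% lower. Equal trimmed means gave 6 higher and 3 lower with a median of 0.08, where 16.7% of all tested probe sets were higher and 16.5% lower. Equal medians gave 4 higher and 6 lower with a median of -0.01, where the shares over all were 14.5% and 22.1%. Over all 5 scalings, 5 of the 25 genes were always called the same way: Rpl13a, Rpl19, Rps10 and Rps4l higher, and Rpl41 lower. No such share was taken over all tested probe sets. Equal trimmed means, equal medians and the hybridization controls each apply 1 factor per array to the same values, so these calls are not independent.

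The bright ribosomal protein genes were also set against other strong signals. As deposited, the 750 other tested probe sets brighter than 4000 on average had a median log2 change of -0.34, with 103 called higher and 414 lower. The 19 bright ribosomal protein genes had a median of 0.03, or 0.37 above them. That gap was 0.41 after quantile normalization. The other 3 scalings multiply each array by 1 factor, so they leave such a gap nearly fixed by construction and do not test it. Of the 750, 29 are annotated to a ribosomal protein gene together with other genes. They had a median of -0.10, and without them the 721 left had a median of -0.35 and the gap was 0.38. No test was made of this difference.

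**Figure D3:**
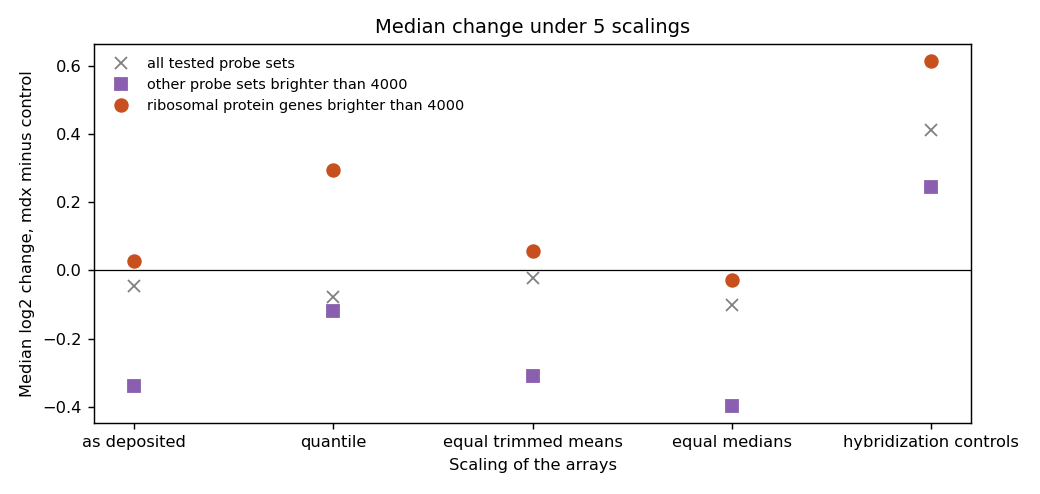
Median log2 change, mdx minus control, of all tested probe sets (crosses), of the 750 other probe sets brighter than 4000 (squares) and of the 19 ribosomal protein genes brighter than 4000 (circles) under 5 scalings. The circles run from -0.03 to 0.61, and the distance from square to circle is 0.37 as deposited and 0.41 after quantile normalization; the other 3 scalings apply 1 factor per array and cannot change it much.

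Ratios within an array do not depend on a factor applied to that array, so each bright gene was also set against the mean of the 19 on the same array. Of the 19, 4 were higher in mdx relative to the others with no overlap (Rpl19, Rps10, Rps7 and Rps18), 2 were lower (Rpl41 and Rps28), and 13 overlapped. As deposited, the groups did not overlap in 25.1% of all tested probe sets, and no such share was taken for these ratios. Relative to this mean, Rpl19 moved from between -0.50 and -0.21 in control to between 0.11 and 0.17 in mdx. Rpl41 moved from between 0.48 and 1.36 to between -0.35 and 0.38. The mean of the 19 holds Rpl41 itself, which fell. Set against the mean of the 18 without it, a choice made after seeing the data, Rpl19 (0.47) and Rps10 (0.25) were higher and Rpl41 (-1.15) and Rps28 (-0.36) lower with no overlap, while Rps7 (0.15) and Rps18 (0.05) overlapped. These ratios show unequal change among the genes, and do not show which of them stayed level.

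**Figure D4:**
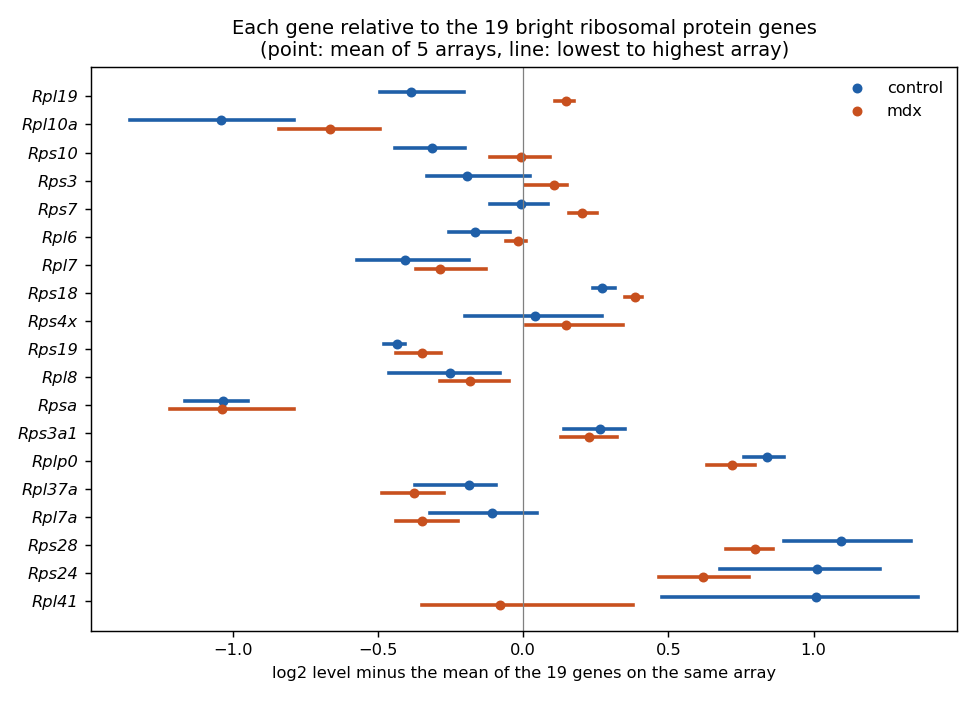
Log2 level of each of the 19 bright ribosomal protein genes minus the mean of the 19 on the same array, as the mean (point) and the lowest to highest array (line) of each group, ordered by the difference between groups. Rpl19 at the top is separated upward and Rpl41 at the bottom downward, while most lines overlap.

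Large and small subunit genes did not separate. On each array the mean log2 level of the 12 large genes minus that of the 13 small genes was taken, where only the difference between groups can be read, since different probes were used. It was -0.16 ± 0.21 in control, and in mdx it was -0.20 ± 0.10 (SD, n = 5). The difference of -0.04 lay within a wide overlap. Over the bright genes, 9 large and 10 small, it was -0.15 ± 0.04 in control and -0.23 ± 0.04 in mdx, with control from -0.19 to -0.09 and mdx from -0.28 to -0.16. That difference of -0.08 rested on 1 gene. Without Rpl41 the values were -0.28 ± 0.06 and -0.24 ± 0.03, and the difference turned to 0.05. After quantile normalization of all 25 genes the difference was -0.08, again with overlap.

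**Figure D5:**
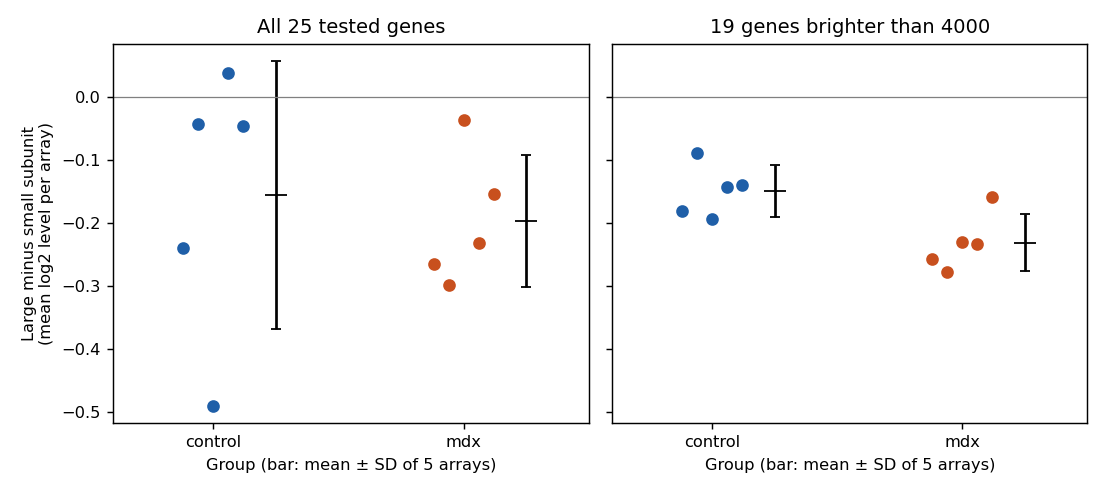
Mean log2 level of large minus small subunit genes on each array, for all 25 tested genes (left) and for the 19 brighter than 4000 (right), with the mean ± SD of 5 arrays beside the points. The groups overlap in both panels, and mdx replicate 5 at -0.16 is the mdx array inside the control range on the right.

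Another 39 probe sets are annotated to a ribosomal protein gene together with other genes, mostly its processed copies, and were kept out because no single gene can be named. Of the 36 tested, 8 were lower, 1 was higher and 27 did not pass as deposited, with a median of -0.11, where 17.5% of all tested probe sets were lower and 15.6% higher. After quantile normalization 11 were higher and 0 lower, with 25 not passing and a median of 0.11, where 15.2% of all were higher and 17.4% lower. At an unadjusted p below 0.05 limma gave 15 higher and 1 lower. The 1 that rose as deposited went from 2086 to 7097, a log2 change of 1.69 as deposited and 1.76 after quantile normalization. It was singled out after its values were seen.

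Of 36 tested translation factors and TOP mRNA genes, 4 rose, 10 fell and 22 did not pass, with a median of -0.02, where 15.6% of all tested probe sets were higher and 17.5% lower. Scaling to the hybridization controls raised the count of rises to 18, with 0 falls, where 41.3% of all tested probe sets were higher and 1.75% lower. The elongation factor 1A isoforms went opposite ways. Eef1a1, the form of growing and non-muscle cells, rose from 9257 ± 1242 to 25211 ± 3170 (SD, n = 5), a log2 change of 1.43 (SE 0.11) with no overlap. Eef1a2, the form of adult muscle and neurons, fell from 25376 ± 4547 to 17576 ± 3486 (-0.53, SE 0.15, limma adjusted p = 0.0166), but did not pass after quantile normalization (-0.21, adjusted p = 0.103). Scaled to the hybridization controls Eef1a2 stood at 0.06. The other rises were Eif1a (1.07), Eif3f (1.09, dim and overlapping) and the poly(A)-binding protein Pabpc1 (0.61). Eif3j1, a loosely bound subunit of initiation factor 3, fell by 0.67, the cap-binding inhibitor Eif4ebp2 by 0.58 and Larp1, the TOP mRNA-binding protein, by 0.57.

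Of 39 ribosome assembly and RNA polymerase I genes, 3 rose, 6 fell and 30 did not pass, no larger a share in either direction than over all tested probe sets. Leaving out single arrays moved the 6 to between 1 (without control replicate 1) and 5, with 2 without control replicate 2 or 5 or mdx replicate 1 or 4, and 3 without control replicate 3. The median was -0.07, and 18 rose when scaled to the hybridization controls, where 41.3% of all tested probe sets were higher. The abundant nucleolar proteins Npm1 and Ncl rose by 0.44 and 0.33 on the log2 scale, as did Imp4 (0.47). Bysl, an assembly factor of the small subunit, fell by 0.53 and Nvl, of the large subunit, by 0.50. The call of Nvl was lost without control replicate 1 (adjusted p = 0.051) or 2 (adjusted p = 0.055). Of 5 tested genes of the mTOR pathway and S6 kinases, 1 rose, Akt1 (0.82), and 3 fell, Mtor (-0.36), Tsc1 (-0.56) and Tsc2 (-0.31). Over all tested probe sets 15.6% were higher and 17.5% lower. Myc and Rps6ka3 were below the noise level on all arrays. A dimmer probe set of Mtor stood at 0.41 and did not pass. The Tsc2 call was lost with any of 8 single arrays left out, and that of Tsc1 without control replicate 3 or 4 or mdx replicate 1 or 2.

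The mitochondrial ribosome, built from a separate set of proteins, moved lower as a list as deposited and after quantile normalization. It did not when scaled to the hybridization controls. Of its 60 tested genes 27 fell, 0 rose and 33 did not pass by limma, with a median of -0.27, against 17.5% of all tested probe sets called lower. At an unadjusted p below 0.05 there were 32 lower and 0 higher. After quantile normalization 24 fell and 0 rose, with a median of -0.29. The list was not set against probe sets of like brightness. As deposited, 414 of the 750 bright probe sets described above were lower and 103 higher. Mrpl45 fell by 0.75, Mrpl51 by 0.51, Mrps7 by 0.49 and Mrpl16 by 0.43, all with no overlap between the groups. Scaling to the hybridization controls raised the median of all tested probe sets to 0.41. The list then had 18 higher and 0 lower (21 and 0 unadjusted), where by adjusted p 41.3% of all were higher and 1.75% lower. Mrpl51, Mrps7 and Mrpl16 stood at 0.07, 0.05 and 0.13 under this scaling.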

How the data were processed

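Affymetrix probe set intensities of 10 arrays were used as the authors deposited them, on a linear scale. Which software, background correction and scaling made them is not given in the sources used here. Of 12488 probe sets, 66 controls were left out. The platform annotation gave 10833 probe sets 1 gene, 396 several and 1193 none, and the reference gene table changed 0 symbols. The noise level was the median size of the 27483 values below 0, divided by 0.6745. Values below 0 became 0, and the fit used log2(intensity + 156.8), which understates changes of dim genes. The fit was limma 3.58.1 in R 4.3.3 (lmFit, then eBayes with a trend, two-sided). Benjamini-Hochberg adjustment covered 7612 probe sets. The fit was tested on simulated data. Single array values were compared by exact permutation. Genes named with values on every array were the called members with the largest changes, up to 6 each way, members called in either fit whose sign turned with quantile normalization, and a fixed list of paralogs and stalk proteins; of companion lists, the 4 with the smallest p and both Eef1a isoforms. The other companion genes given complete a direction with few calls. Members and lists were chosen with earlier results of these data known. The number of arrays limits the precision.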

Additional observations from a re-analysis of the deposited data

Results flagged for a closer look

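In Rpl41, mdx replicate 5 read 25569, while the other 4 mdx arrays lay between 13072 and 15882. Without that array the log2 change was -1.31 and kept its call. In Rpl13a, mdx replicate 3 read 1384, above the 1160 to 1200 of the other mdx arrays, and the log2 change stayed between 0.98 and 1.11 when any single array was left out. Both were picked out because 1 array stood far from the other 4 of its group. Chance alone does this in about 1 in 20 groups, and 28 groups were examined.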

How the results depend on the processing

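The counts of called ribosomal protein probe sets were 2 higher and 1 lower for the large subunit and 2 higher and 3 lower for the small one. Quantile normalization gave 7 higher in the large and 7 higher and 1 lower in the small subunit, with medians of 0.29 and 0.35. Scaling to the hybridization controls gave 10 higher in the large and 11 higher and 0 lower in the small subunit by limma (11 and 0 unadjusted), with medians of 0.50 and 0.63, and over all tested probe sets 3141 higher and 133 lower in place of 1191 and 1329. Equal medians gave 4 lower in the large subunit. With no filter 1 was lower in the small subunit, and with the stricter filter 2 were lower in the large and 1 higher in the small one. Leaving out single arrays gave 1 to 4 lower in the large and 1 to 3 lower in the small subunit. The 4 came without mdx replicate 5, 2 came without control replicate 2, 3 or 5, and the 1 in the small subunit without control replicate 2 or 3 or mdx replicate 2 or 4. The difference between the subunits ranged from -0.12 to 0.01 over these, and was 0.06 with the stricter filter.

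The replicate block gave 1 higher and 1 lower in the small subunit, and the calls of Rps10 (adjusted p = 0.053), Rps24, Rps28, Eef1a2, Mtor and Tsc2 were lost. Same-numbered arrays did not deviate together (correlations from -0.13 to 0.05), and no label pairs them. So few values cannot exclude a shared preparation step. Chosen after seeing the data, members brighter than 4000 gave 1 higher in each subunit, with or without Rpl41, and leaving out Rpl41 gave 0 lower in the large subunit by limma. Adding probe sets annotated to several genes gave 5 lower in the large and 7 lower in the small subunit, and a median of -0.11 in the large one.

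The 28 genes followed through the settings were those with values on every array, the companions chosen by smallest p, and both Eef1a isoforms. Among those of them called under at least 1 of the settings compared, signs turned for Rplp0 (0.29), Rps28 (0.16) and Rps24 (0.069) under quantile normalization. They turned under scaling to the hybridization controls for Rplp0 (0.41), Rps28 (0.23), Rps24 (0.14), Rpsa (0.52), Eif4ebp2 (0.00249), Bysl (0.0033), Mrpl16 (0.13), Mrpl51 (0.066), Mrps7 (0.05), Mtor (0.15), Tsc2 (0.23) and Eef1a2 (0.062). Outside the 28, Rpl7a, Rpl37a and Rps3a1, below 0 as deposited, also turned under that scaling and were called higher. That scaling called 17 of the 19 bright ribosomal protein genes higher and 1 lower. Signs also turned with no call on either side for Rpsa (0.10) and Rps3a1 (0.22) under quantile normalization and for Rpl22 (0.094) under the hybridization controls. Equal medians turned Rps4x to -0.01, also with no call. The cause was not tested. The 4 dim members that did not pass had SE of 0.17 to 0.66, and with the widest of these only large changes could show. Rpl13a and Rps4l, also dim, had SE of 0.11 and 0.13.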
